A study of Caenorhabditis elegans with 2 samples.

Results

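K12H4.5 and tasp-1 are the protein-coding genes of Caenorhabditis elegans that lay next to the strongest nuclear peaks assigned to any protein-coding gene in a chromatin immunoprecipitation of the tagged protein T07F8.4. They were selected on the authors' signal value in the list of reproducible peaks on genome build ce11, with each summit assigned to the nearest annotated transcript start within 1000 bp. They are 2 of the 142 protein-coding genes that received such a peak, and their rank and signal in that list are therefore a description of the selection. The peak just outside the selection was that of rpl-3, with a signal value of 233.9, against 294.2 for K12H4.5 and 256.6 for tasp-1.

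The material was whole young adult hermaphrodites of strain OP478 (unc-119(tm4063) III; wgIs478), collected 64 h after starved L1 larvae were synchronized. The strain carries an integrated transgene for T07F8.4 with GFP and FLAG at its C terminus, chromatin was sheared by sonication, and an antibody against GFP was used. Both samples are labelled as biological replicates of this single group, and untagged animals and input DNA were not analysed here. A single transgenic line and whole animals limit the group as a model, since the lists do not say in which cells the tagged protein met either locus.

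T07F8.4 is annotated in RefSeq as a protein with an ELM2 domain, a domain known from subunits of histone deacetylase complexes in other animals. The name tasp-1 refers to taspase, a threonine protease that in mice and humans cleaves the MLL histone methyltransferase and the general transcription factor TFIIA. K12H4.5 encodes an uncharacterized protein. Many C. elegans messenger RNAs are trans-spliced, which removes the original 5′ end, so an annotated transcript start can lie downstream of the place where transcription began, and some neighbouring genes are transcribed together as operons.

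The K12H4.5 peak covered chrIII:8043832-8044116 on ce11 (WBcel235), with its summit at position 8043961. The tasp-1 peak covered chrIII:10759127-10759391, with its summit at position 10759249. Both summits lay between genes. The sequences around the summits, taken from the RefSeq WBcel235 genome on the plus strand, which is the coding strand of both genes, are shown because no small RNA gene was annotated under either summit. Capitals mark words of 9 letters, the longest that occur more than once in the 300-bp window around each summit on either strand.
K12H4.5, chrIII:8043861-8044080: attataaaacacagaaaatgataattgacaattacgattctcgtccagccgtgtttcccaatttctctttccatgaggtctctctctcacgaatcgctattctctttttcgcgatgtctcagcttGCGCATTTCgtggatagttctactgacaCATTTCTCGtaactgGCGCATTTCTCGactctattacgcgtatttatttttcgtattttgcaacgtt
tasp-1, chrIII:10759107-10759306: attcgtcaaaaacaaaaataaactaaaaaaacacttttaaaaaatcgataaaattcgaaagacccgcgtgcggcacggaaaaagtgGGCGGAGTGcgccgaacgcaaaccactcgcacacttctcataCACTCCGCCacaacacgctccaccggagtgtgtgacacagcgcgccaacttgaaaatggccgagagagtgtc
The K12H4.5 stretch carries direct repeats downstream of the summit, and the tasp-1 stretch carries an inverted repeat just upstream of it.

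K12H4.5 was the strongest protein-coding peak in each of the 4 ce11 lists. Its signal value was 294.2 in the reproducible list, where it ranked 3 of 600 nuclear peaks. It was 173.6 in the list of replicate 1, at rank 2 of 19491 nuclear regions, and 122.7 in the list of replicate 2, at rank 4 of 17474. These values were 13.4 times and 9.07 times the median nuclear signal of the replicate 1 and replicate 2 lists. Only snoRNA peaks ranked above it among nuclear reproducible peaks.

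The tasp-1 peak stood lower in replicate 2 than in replicate 1. Its signal value was 256.6 in the reproducible list, at rank 4. It was 152.0 in the replicate 1 list, at rank 4, and 104.5 in the replicate 2 list, at rank 16, which were 11.7 times and 7.73 times the list medians. Among peaks of protein-coding genes, tasp-1 ranked 2 in the reproducible, pooled and replicate 1 lists. In the replicate 2 list it ranked 4, below K12H4.5, rpl-3 and nspc-17, and 6 when summits were assigned to protein-coding starts alone, then also below ints-8 and pqn-71. The order of both members was the same in both replicates, with K12H4.5 above tasp-1 by 1.14 times in replicate 1 and 1.17 times in replicate 2. No test of this difference was made, since both genes were selected on this measure.

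**Figure D1:**
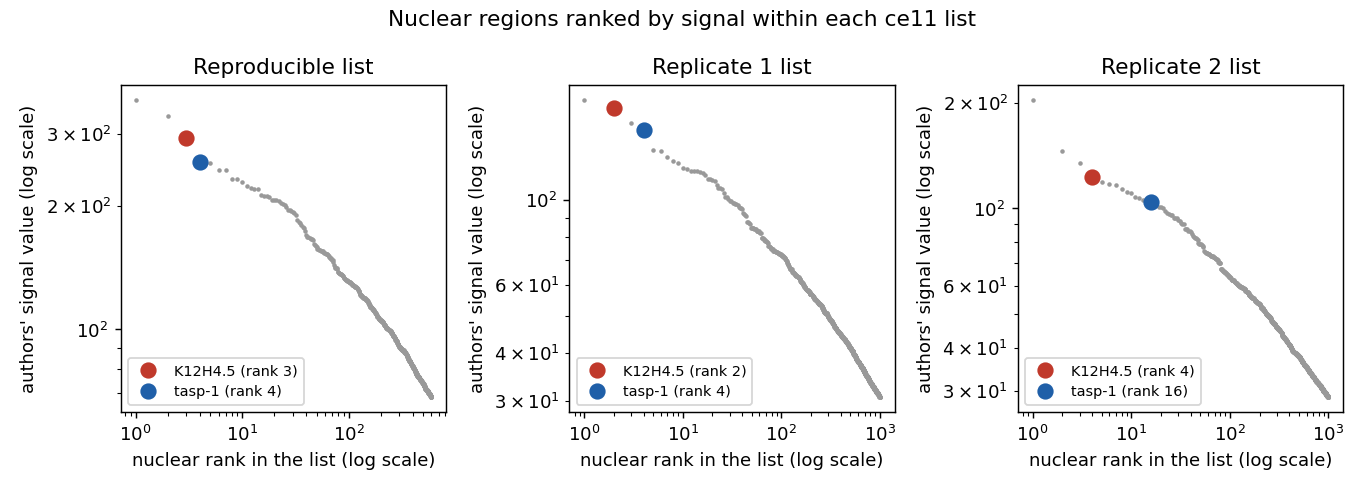
Signal value (log axis, authors' units) against nuclear rank (log axis) in the reproducible list (600 peaks) and for the first 1000 regions of each replicate list on ce11, with each grey point a region. K12H4.5 (red) holds ranks 3, 2 and 4, and tasp-1 (blue) holds ranks 4, 4 and 16.

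The labels and headers used here do not state the scale of the signal value, and the lists hold no read counts, so values and their ratios were read only within a list, as descriptions of that score, and the depth behind them is unknown. The signal values in the reproducible list were those of the pooled list, so the reproducible and pooled lists are not independent measurements. The replicate lists are not independent of the selection either, since the pooled list takes both replicates together. The −log10 q-value of both peaks was 2.92, the upper value of the reproducible list, which 421 of its 621 peaks shared, and it does not separate the members from the rest.

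The peaks of the 8 next protein-coding genes give the scale of the gap. rpl-3, a protein of the large ribosomal subunit, had signal values of 116.0 in replicate 1 and 117.7 in replicate 2. nspc-17, a member of a nematode-specific peptide family, had values of 135.2 and 107.5. In replicate 1 both members lay above all 8 of these genes, and in replicate 2 K12H4.5 lay above all 8 while tasp-1 lay below rpl-3 and nspc-17. rpl-15 and rpl-35 had values of 96.9 and 109.3 in replicate 1 and 100.6 and 87.3 in replicate 2. The remaining 4 were Y17G9B.5, cdc-48.1, which encodes an AAA ATPase of protein quality control, fbxb-58, an F-box gene, and wip-1. Their values ran from 95.2 to 119.0 in replicate 1 and from 58.6 to 73.0 in replicate 2.

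**Figure D2:**
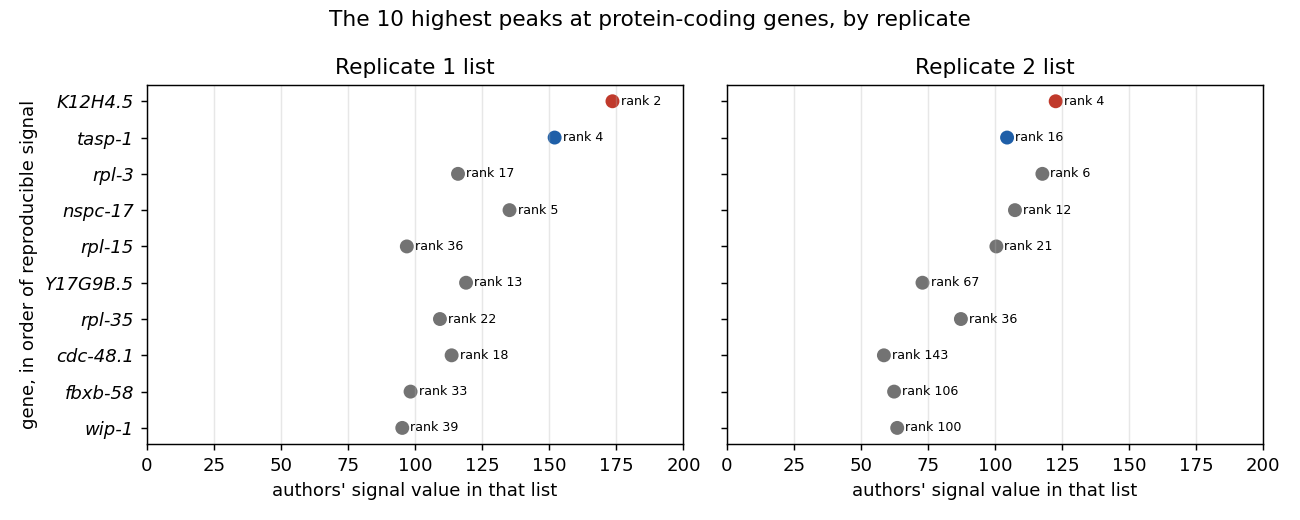
Signal value in the replicate 1 and replicate 2 lists (x axis, authors' units) for the 10 protein-coding genes with the strongest reproducible peaks, in order of their reproducible signal, with the nuclear rank in that list printed beside each point. K12H4.5 (173.6 and 122.7) is highest in both panels, and tasp-1 (152.0 and 104.5) stands next in the left panel and below rpl-3 and nspc-17 in the right.

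Both peaks were narrower than the common width of their list. The reproducible peak of K12H4.5 was 285 bp wide and that of tasp-1 was 265 bp, against 436 bp for most regions. Among the 600 nuclear reproducible peaks, 88 (14.7%) were narrower than 436 bp, and among all nuclear pooled regions only 90 (0.531%) were. Narrow peaks went with high signal: all 20 of the 20 highest nuclear peaks and 9 of the 10 highest protein-coding peaks were narrower than 436 bp, all but fbxb-58. In replicate 1 the widths were 262 bp for K12H4.5 and 233 bp for tasp-1. In replicate 2 they were 198 bp for K12H4.5 and 440 bp, the common width of that list, for tasp-1.

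The replicate summits were closer for tasp-1 than for K12H4.5 on ce11. For K12H4.5 they lay at 8043962 in replicate 1 and 8043997 in replicate 2, which is 35 bp apart, and 342 of the other 599 nuclear reproducible peaks (57.1%) had closer replicate summits. For tasp-1 they lay at 10759256 and 10759244, which is 12 bp apart, and 150 of the other 599 (25.04%) were closer. The median over nuclear reproducible peaks was 28 bp, with quartiles of 11.75 and 53.25 bp. On ce10 the distances were 4 bp for K12H4.5 and 16 bp for tasp-1, so their order depends on the build of the lists.

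The members differed in where the peak lay relative to the gene. K12H4.5 (WBGene00019680, chrIII:8044487-8044780, plus strand) is a gene of 1 exon with 291 bp of coding sequence for 97 residues and no annotated 5′ UTR, so its annotated start is also its first coding base. The summit lay 526 bp upstream of it, and 127 of the 146 other protein-coding peaks (87.0%) lay closer to their start. tasp-1 (WBGene00010480, chrIII:10759307-10763021, plus strand) has 3 annotated transcripts that encode the same length of protein, 331 residues. Its summit lay 58, 136 and 420 bp upstream of their starts at 10759307, 10759385 and 10759669, and 16 of the 146 other protein-coding peaks (10.96%) lay closer. Without the members, the median distance over protein-coding peaks was 205 bp, with quartiles of 131 and 348 bp. Measured to the first coding base the members were nearly alike, at 526 bp for K12H4.5 and 518 bp for tasp-1.

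**Figure D3:**
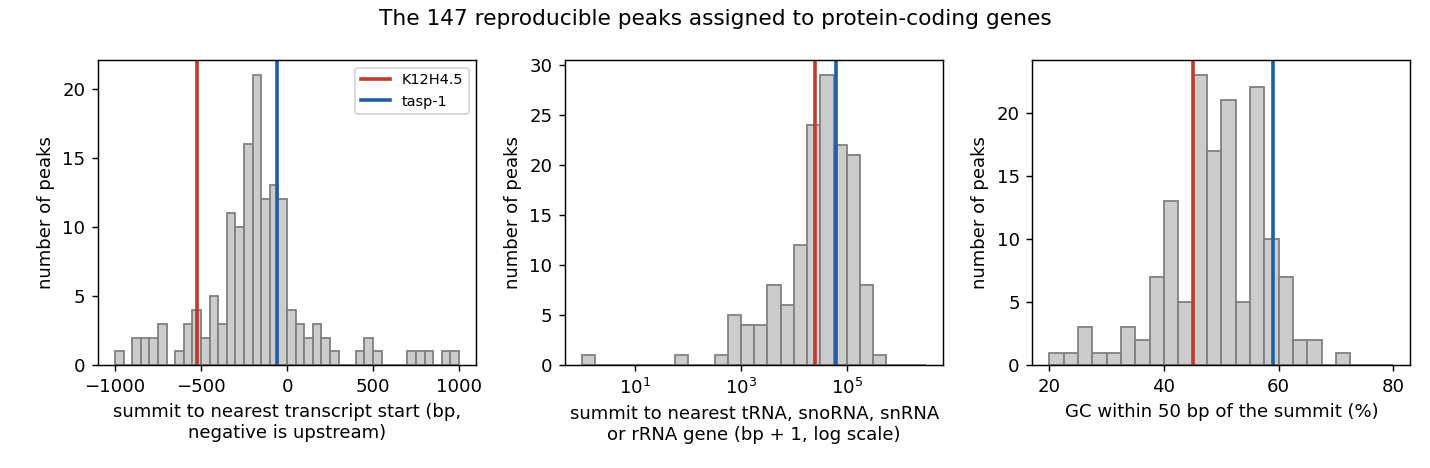
Histograms of the 147 reproducible peaks at protein-coding genes by distance from summit to transcript start (bp), distance to the nearest tRNA, snoRNA, snRNA or rRNA gene (bp + 1, log axis) and GC content within 50 bp of the summit (%), with K12H4.5 as a red line and tasp-1 as a blue line. K12H4.5 lies far upstream of its start (526 bp) at 45% GC and tasp-1 close to its start (58 bp) at 59% GC, and neither lies within 5 kb of such a small RNA gene.

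Each peak lay in a gap between genes transcribed away from it. Upstream of K12H4.5 the neighbour was K12H4.6 (chrIII:8042550-8042875, minus strand), an uncharacterized gene whose start lay 1086 bp from the summit, in a gap of 1611 bp between both genes. Upstream of tasp-1 the neighbour was K01G5.10 (chrIII:10757641-10758522, minus strand), annotated as a haloacid dehalogenase-like hydrolase, whose start lay 727 bp from the summit, in a gap of 784 bp. In both cases the member had the nearest start, but the tasp-1 summit also lay within 1000 bp of the start of K01G5.10, so this gene is a candidate target by position.

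K12H4.5 opens a dense run of genes on the same strand. The gap to spcs-3, which encodes subunit 3 of the signal peptidase complex, was 236 bp. The gap from spcs-3 to K12H4.3, the homolog of the ribosome biogenesis factor BRX1, was 102 bp, and that from K12H4.3 to K12H4.2 was 99 bp. The starts of spcs-3, K12H4.3 and K12H4.2 lay 1056, 2073 and 3751 bp downstream of the summit. The peak lay upstream of the whole run, so these genes cannot be told apart from K12H4.5 as targets by position if they are transcribed together, which the annotation used does not state. The other genes within 5 kb of K12H4.5 were dpf-6, a dipeptidyl peptidase family gene, and K12H4.7, a putative serine protease gene, whose starts lay 5720 and 7120 bp from the summit with the summit downstream of both starts.

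The tasp-1 neighbourhood held 4 further genes within 5 kb. On the far side of K01G5.10 lay rnf-113, which encodes a putative ubiquitin ligase, and hpl-2, which encodes a heterochromatin protein of the chromobox family, with starts 1609 and 3719 bp from the summit on the minus strand. Downstream, dpy-28 followed tasp-1 on the same strand after 109 bp. It encodes a condensin subunit, known in C. elegans for its part in dosage compensation, and its start lay 3882 bp from the summit. The minus-strand genes were also dense, with gaps of 0 bp from K01G5.10 to rnf-113 and 93 bp from rnf-113 to hpl-2. If same-strand neighbours are transcribed together, dpy-28 cannot be told apart from tasp-1 as a target by position, nor rnf-113 and hpl-2 from K01G5.10. The annotation used does not state whether they are. None of the 6 other genes near K12H4.5 or the 4 others near tasp-1 had a reproducible peak of its own. Over all protein-coding genes with a nuclear pooled region within 1000 bp of a start, only 142 of 5808 (2.44%) had one. Each summit was assigned to its nearest start alone, so K01G5.10 could not receive the tasp-1 peak. The count thus gives no result about the neighbours as targets.

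No small RNA gene lay within 5 kb of either member. All 7 genes near K12H4.5 and all 5 near tasp-1, the members included, were protein-coding in the Ensembl annotation, and the RefSeq annotation of the same assembly also held 0 non-coding genes within 5 kb. The nearest non-coding gene to the K12H4.5 summit was the ncRNA gene K12H4.11 at 15218 bp, followed by a tRNA gene at 25444 bp. Its nearest snoRNA gene, C50C3.13, lay 121579 bp away. The nearest non-coding gene to the tasp-1 summit was the ncRNA gene K01G5.11 at 11079 bp, and its nearest snoRNA and tRNA genes lay 62432 and 134436 bp away. The nearest piRNA genes lay 110576 bp from the K12H4.5 summit and 48233 bp from the tasp-1 summit.

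This sets the members beside peaks of another kind at the top of the list. Of the 10 highest nuclear peaks, 4 were assigned to snoRNA genes (C51F7.4, ZK994.7, T03F7.8 and W03C9.9) and 1 to rpr-1, the RNA of RNase P. The snoRNA peaks of C51F7.4 and ZK994.7, with signal values of 364.2 and 331.8, were those above K12H4.5. Of the 10, 4 were assigned to protein-coding genes, the members, rpl-3 and nspc-17, and 1 peak on chromosome X with a signal value of 244.7 had no transcript start within 1000 bp. Among the 145 protein-coding peaks other than the members, 8 (5.52%) had a tRNA, snoRNA, snRNA or rRNA gene within 1000 bp and 21 (14.5%) within 5 kb. Of the next 8 genes, rpl-15 and cdc-48.1 had a snoRNA gene 578 and 497 bp from the summit, and fbxb-58 had a tRNA gene 2724 bp away.

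The lists held 5 pooled regions within 5 kb of each member, and of each 5 only the main peak was in the reproducible list. The main peak was there because the genes were selected on it, and none of the other pooled regions was. Over all nuclear pooled regions, 600 of 16935 (3.54%) were in the reproducible list. Near K12H4.5 the strongest other pooled region had its summit 200 bp downstream of the main summit and overlapped the main peak. Its signal value was 60.8, at pooled rank 782, which was below 68.2, the lowest nuclear value of the reproducible list. Replicate 1 had a region at this place with a signal value of 22.4, at rank 2205, and replicate 2 had one with 13.1, at rank 9408. The further pooled regions near K12H4.5 lay in the coding sequence of spcs-3, with a signal value of 24.2, between spcs-3 and K12H4.3, with 26.8, and in an intron of K12H4.3, with 29.5. The pooled median was 22.99, and these values lay above it, at pooled ranks 7436, 5713 and 4413 of 16935. In replicate 1 the overlapping regions had values of 11.9, 14.6 and 15.1 in the same order, against that list's median of 12.98. A further replicate 1 region, in the coding sequence of K12H4.3, had 10.7. Replicate 2 had no region in the coding sequence of spcs-3. Its regions at the other places had 11.4 and 11.8, below that list's median of 13.5. Replicate 1 alone had a region in the coding sequence of K12H4.7, with a signal value of 20.3.

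Near tasp-1 the regions beside the main peak were weaker. A pooled region with its summit 201 bp downstream, in the 5′ UTR of tasp-1, had a signal value of 21.3 at pooled rank 10304. Replicate 1 had one there with 27.5, at rank 1323, and replicate 2 had none. The other pooled regions lay in an intron of tasp-1, with a signal value of 17.5, and in introns of dpy-28, with 18.9 and 17.2, all below the pooled median. Replicate 2 had the region in the tasp-1 intron with a signal value of 17.5 at rank 4175, above that list's median of 13.5, and a region in the tasp-1 coding sequence with 10.8, below it. Replicate 1 alone had a region 89 bp upstream of the start of hpl-2, with a signal value of 12.5, below that list's median of 12.98.

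**Figure D4:**
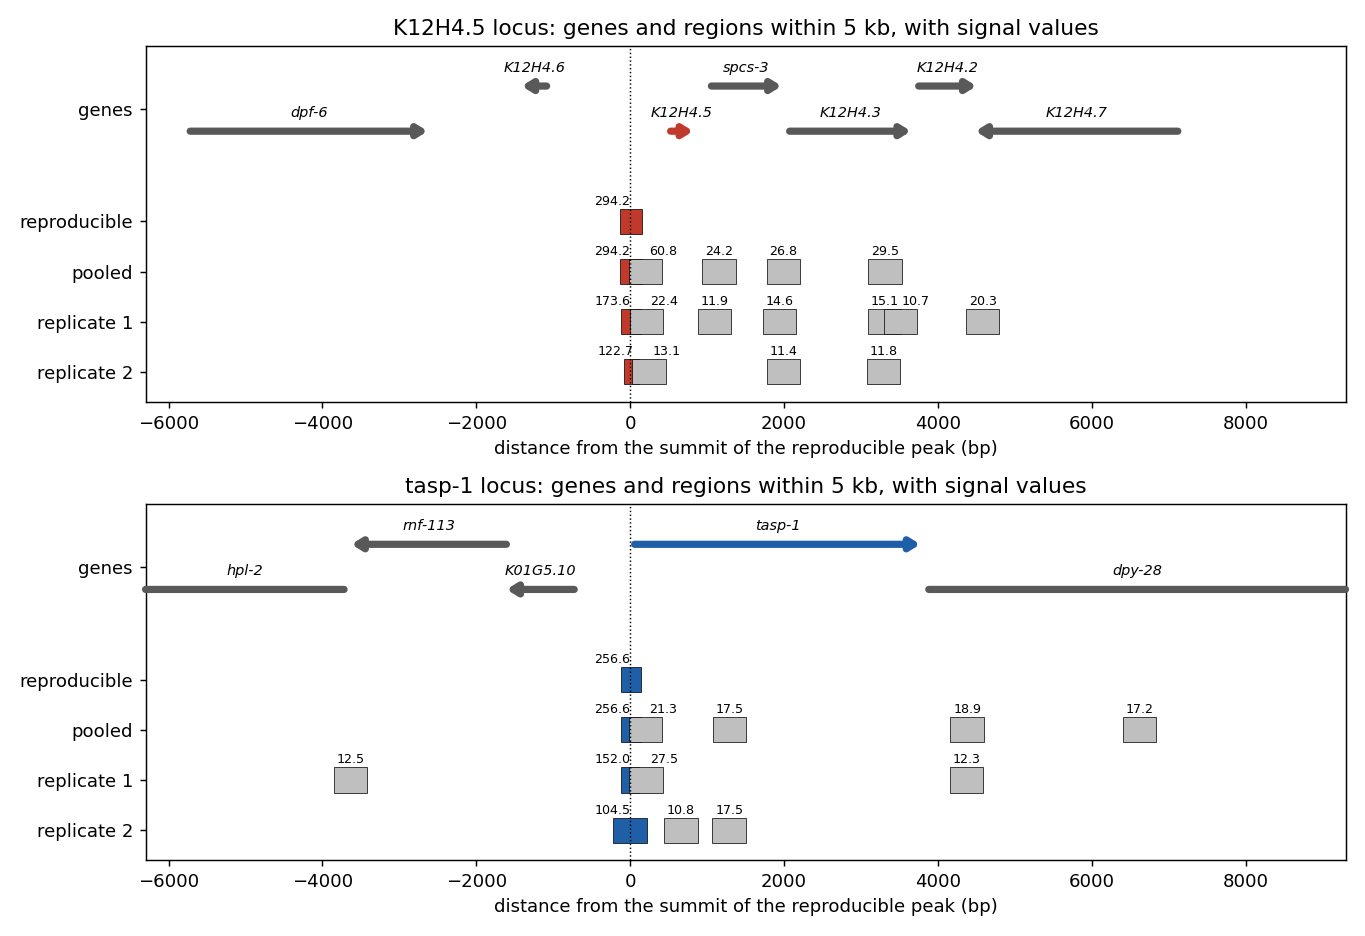
Genes (arrows, in the direction of transcription, cut at the frame for hpl-2 and dpy-28) and authors' regions (boxes, with signal values above) within 5 kb of K12H4.5 and of tasp-1, on an x axis of distance from the summit of the reproducible peak (bp). In each list the coloured main peak at the dotted line exceeds every other region of its locus, by 294.2 against 60.8 for K12H4.5 and 256.6 against 21.3 for tasp-1 in the pooled list.

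An overlapping region about 200 bp from the summit was not particular to the members. Of the 600 nuclear reproducible peaks, 206 (34.3%) had another pooled region that overlapped them, with summits 199 to 383 bp apart and a median of 202.5 bp. This count took pooled regions whether or not they were in the reproducible list. Among the 8 next protein-coding genes none had one. Whether such regions hold binding of their own was not tested.

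The base composition at the summits differed. GC content within 50 bp of the summit was 45% for K12H4.5, with 37 of the 146 other protein-coding peaks lower, and 59% for tasp-1, with 132 of 146 lower. The median of the 145 protein-coding peaks without the members was 49%, with quartiles of 44% and 55%.

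Short motifs were searched on both strands within 150 bp of the summits. The K12H4.5 window held TATAAA, starting 98 bp upstream of the summit, GGCGCA, starting 67 bp downstream, and TTTTT. The tasp-1 window held GGGCGG, starting 57 bp upstream of the summit, GGCGCA on the minus strand, 49 bp upstream, CACTCG, 33 bp upstream, and TTTTT. Besides this run of T, both windows shared only GGCGCA. That word was in 16.5% of the windows at nuclear reproducible summits and in 15.6% of those at protein-coding reproducible summits. It was in 8.22% of those at the 16335 nuclear pooled summits outside the reproducible list. In the same order, TATAAA was in 25.5%, 25.9% and 30.1%, and CACTCG in 18.5%, 12.9% and 8.12%. GGGCGG was in 13.2%, 17.0% and 8.26%, and TTTTT in 91.3%, 91.2% and 88.0%.

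The tRNA and piRNA motifs searched were in neither window, and no other small RNA promoter element was searched. GTTCGA, which is part of the internal promoter (B box) of tRNA genes, was in 43.2% of the windows at nuclear reproducible summits, in 18.4% of those at protein-coding summits and in 12.8% of the background windows, and in neither member. CTGTTTC, the core of the motif upstream of C. elegans piRNA genes, was in 5.17%, 4.08% and 5.73%, and in neither member. ACGCGC and CACGTG were also absent from both windows. These letters not being in the windows says nothing of the factors that bind elsewhere.

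The repeated words of the printed stretches were counted in the same windows. GCGCATTTC starts 25 and 68 bp downstream of the K12H4.5 summit and CATTTCTCG starts 53 and 71 bp downstream, so that their last copies overlap. GGCGGAGTG starts 56 bp upstream of the tasp-1 summit, with its inverted copy starting 14 bp upstream. A window holding GGCGGAGTG was found at 7 of 600 nuclear reproducible summits (1.17%) and at 23 of 16335 background summits (0.141%). CATTTCTCG was in 3 of 600 (0.5%) and 85 of 16335 (0.520%), and GCGCATTTC in 1.17% and 0.539%. These words were read from the members' own windows, so the members count among the windows that hold them and the shares are no support for the words.

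The tasp-1 summit shared letters with other protein-coding peaks, and K12H4.5 shared none of the most common ones within 50 bp of its summit. Of all words of 6 letters within 50 bp of the tasp-1 summit, 4 were each also there, on either strand, in rpl-3, rpl-15, Y17G9B.5, rpl-35 and cdc-48.1, which makes 6 of the 10 highest protein-coding peaks. The first of these words was AACACG. In tasp-1 it overlaps the second word, ACACGC. Farther upstream of the summit lay ACACTT, and between them, in a separate place, lay TACACT. None of the 4 lay wholly within 50 bp of the K12H4.5 summit, but its AACACG started 51 bp upstream, at the edge of this limit. In the K12H4.5 window AAACAC was the word shared most, in 5 of the 10. Joined as AACACGC, the word started 3 bp upstream of the tasp-1 summit, and from 3 to 19 bp upstream of the others' summits in coordinates of the plus strand. The stretches that hold it are shown on the strand that reads AACACGC, with this word and the word ACACTT in capitals.
tasp-1, chrIII:10759214-10759258, plus strand: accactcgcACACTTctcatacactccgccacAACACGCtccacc
rpl-3, chrIII:3867571-3867615, minus strand: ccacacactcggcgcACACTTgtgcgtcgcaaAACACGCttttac
rpl-15, chrIV:654888-654932, plus strand: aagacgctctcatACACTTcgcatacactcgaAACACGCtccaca
Y17G9B.5, chrIV:4750058-4750102, minus strand: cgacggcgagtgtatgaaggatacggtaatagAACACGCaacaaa
rpl-35, chrIII:7854667-7854711, minus strand: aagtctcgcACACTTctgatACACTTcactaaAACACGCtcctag
cdc-48.1, chrII:10563540-10563584, minus strand: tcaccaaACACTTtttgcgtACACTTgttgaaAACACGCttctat
In 5 of these 6, all but Y17G9B.5, ACACTT starts upstream of AACACGC on the same strand, by 23 bp in tasp-1, 17 bp in rpl-3, 19 bp in rpl-15 and 12 bp, for the nearer copy, in rpl-35 and cdc-48.1.

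The words and a limit of 30 bp between them were chosen after these windows had been seen, so their count among the 10 genes is no support. Within 150 bp of the summit, AACACGC was in 30 of 600 nuclear reproducible windows (5.00%), in 18 of 147 protein-coding windows (12.2%) and in 345 of 16335 background windows (2.11%). The reproducible and protein-coding counts include the windows from which AACACGC was read, so these shares are no support for it either. ACACTT up to 30 bp upstream of AACACGC on the same strand was in 5 of the 600, which were the 5 windows the words were read from, and in 3 of 16335 background windows (0.0184%). K12H4.5 had no AACACGC within 150 bp of its summit, and its copy of AACACG started 51 bp upstream of the summit.

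A search of the genome with the 300-bp windows found a longer match between tasp-1 and rpl-35. At an E-value of 0.001 or less, the tasp-1 window matched 4 other places in part, of which 1 lay at a reproducible summit, that of rpl-35. This match had the highest E-value of the 4, 3.01e-04, and the others, over up to 80 bp, had E-values of 7.08e-06, 8.62e-05 and 8.62e-05 and lay upstream of the tasp-1 summit. The match with rpl-35 covered 38 bp, of which 33 (86.8%) were identical, and is shown with identical bases in capitals.
tasp-1, chrIII:10759218-10759255, plus strand: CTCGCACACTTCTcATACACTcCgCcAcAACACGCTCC
rpl-35, chrIII:7854670-7854707, minus strand: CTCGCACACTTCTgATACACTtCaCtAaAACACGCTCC
In the tasp-1 window the match ran from 31 bp upstream to 6 bp downstream of the summit. The K12H4.5 window matched 2 other places in part, over at most 45 bp, neither at a reproducible summit, so no other strong peak shared a stretch of its sequence at this E-value.

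Genes related to the members' annotated neighbours, to taspase, to small RNA processing and to RNA polymerase III transcription were read from 5 lists. Of the protein-coding genes with a nuclear pooled region within 1000 bp of a start, 142 of 5808 (2.44%) had a reproducible peak. The lists are not complete. In the list of the signal peptidase complex and the translocon, to which spcs-3 beside K12H4.5 belongs, 2 of 9 genes with a pooled region had one. These were spcs-2, a further signal peptidase subunit, with a signal value of 94.1 at 122 bp upstream, and sec-61.G, a subunit of the Sec61 channel, with 132.2 at 185 bp upstream. With summits assigned to protein-coding starts alone, trap-3, with a signal value of 95.7, was added, which made 3 of 10 against a background of 304 of 6426 genes (4.73%). A related gene outside the list, serp-1.1, also had a reproducible peak, with a signal value of 87.7, and was singled out after its value was seen. Among MLL and COMPASS genes 1 of 8 had one, ash-2, a core subunit of these methyltransferase complexes, with a signal value of 81.3 at 90 bp upstream. Genes of TFIIA, TBP and RNA polymerase II initiation had 0 of 8. That list leaves out drap-1 and btf-1, named after regulators of TBP, which were singled out after their values were seen. Their reproducible peaks had signal values of 87.1 at 4 bp upstream and 74.6 at 205 bp upstream. Genes of Dicer and small RNA processing had 0 of 12, and those of SNAPc and the RNA polymerase III machinery had 0 of 8. The lists leave out tofu-1, known from piRNA biogenesis, and rpac-19, a subunit shared by RNA polymerases I and III, singled out after their values were seen. tofu-1 had a reproducible peak of 73.6 at 113 bp upstream, and rpac-19 one of 80.5 at 248 bp upstream. Lists of this size at a background of 2.44% give no result about their genes.

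No region lay within 5 kb of T07F8.4 itself in any of the 4 ce11 lists.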

How the data were processed

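The authors deposited 8 peak lists, 4 on ce11 and 4 on ce10: 1 per replicate, 1 pooled, and 1 of reproducible peaks selected by irreproducible discovery rate (IDR). In the deposited lists the signal value is a score of unstated scale and q-values stand as −log10, per the column order of the peak format; for the aligner, peak caller and IDR threshold, the sources used here give nothing. Read depth is unknown. Regions were ranked by the authors' signal value after leaving out mitochondrial ones. Summits were assigned to the nearest Ensembl release 115 start within 1000 bp, and sequences were read from RefSeq WBcel235, with Python 3.11.15, pandas 2.3.3 and BLAST 2.17.0. Coordinates are 1-based, and none was converted between builds. The assignment code was tested on simulated data.

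The members and lists were chosen with earlier results of these data known. Named genes were the members, all genes within 5 kb, the 10 highest nuclear peaks, the next 8 protein-coding genes, list members with a reproducible peak and T07F8.4. The ce10 comparisons, repeated and shared words, the word pair, BLAST and overlapping regions were added after the data were seen. With 1 group and 2 replicates no test was made. Alternatives were the ce10 lists, each replicate alone, other assignments, a signal minimum and other motif windows.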

Additional observations from a re-analysis of the deposited data

How the results depend on the processing

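Ranked among protein-coding peaks or with protein-coding starts alone, K12H4.5 ranked 1 and tasp-1 ranked 2. Leaving out each replicate gave rank 4 to 16 for tasp-1, a K12H4.5 summit 525 to 490 bp upstream of its start (-525 to -490) and 3 to 4 regions near tasp-1 and 4 to 7 near K12H4.5. The ce10 list of replicate 2, added after seeing the data, placed tasp-1 at rank 15, and on ce10 the replicate summits were 4 bp apart for K12H4.5 and 16 bp for tasp-1. Keeping regions at or above the lowest reproducible signal left 1 at each gene. Within 50 bp of the summit, 1 motif was found for K12H4.5 and 2 for tasp-1. Replicate 2 alone thus lowers the rank of tasp-1 from 4 to 16, and that of K12H4.5 from 3 to 4. No paired analysis was possible because there is no second group to pair with, and the members, which were selected on this value, were set side by side within each replicate only as a description. Unknown depth and unstated signal scale limit ranks and ratios of signal to descriptions within a list.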
